A study of Mus musculus with 10 samples.

Results

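The genes described here take up fatty acids into the heart and oxidize them. The set holds 40 named genes for fatty acid uptake, activation, the carnitine shuttle, mitochondrial beta-oxidation, electron transfer, ketone body use, triglyceride turnover and their transcriptional control, and its members were taken as the probes that carry one of these gene symbols. Of the 40 genes, 35 had a probe among 19942 gene symbols, all 35 passed the filter on low values, and 16113 genes of the series did. Hadhb, Cpt1b, Fabp3, Etfb and Acacb were not analysed here, since no probe carried their symbol. Male C57BL/6J mice, 8 weeks old and with no engineered allele named, underwent transverse aortic banding (TAB), in which a constriction of the aortic arch loads the left ventricle with pressure, or a sham operation. After surgery, left-ventricular RNA was sampled on days 3, 5, 7, 14 and 28, with 1 TAB and 1 sham sample on each day and 10 arrays in all, labelled with Cy5 and read in 1 colour on a whole-genome oligonucleotide array. How many mice a sample held is not stated. One label puts the TAB sample of day 14 at 15 days, but its title and source name say 14, which was followed here.

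The adult heart draws most of its fuel from fatty acids. They enter the cell through carriers such as Cd36, are joined to coenzyme A, cross into the mitochondrion as carnitine esters and are shortened there by repeated rounds of beta-oxidation. The nuclear receptor Ppara and the related receptor Esrra, with the coactivator Ppargc1a, switch on many of these genes, and a heart under pressure load is known for a shift away from this fuel.

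Each array was scaled, filtered and quantile normalized, and a level is given below as log2 normalized intensity, which can be compared between samples for one probe but not between probes. A difference is given as the log2 ratio of TAB over sham on the same day. A single day has no replicate, so limma was fitted to all 10 arrays with day as a block, and the 5 days stood in as replicates. A gene was called lower or higher when its adjusted p (Benjamini-Hochberg over 16113 genes) was under 0.05. Nothing in the labels says how many animals or extractions lie behind a sample, so these p-values measure only the spread between these samples, which may be technical. Median raw intensity per array ranged from 34.0 to 57.0, spots marked as not found made up 40.2% to 47.3% of an array, and the correlation between arrays over genes was at least 0.938. All 12 cardiomyocyte markers were found on every array.

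A part of the fatty acid genes was called lower in TAB. Of the 35 members, 16 were called lower in TAB and 0 higher, and the other 19 were not called. Over all genes 8.22% were called lower and 9.51% higher. The mean log2 ratios of the 16 members called lower lay between -1.87 (Acot1) and -0.40 (Cpt2), which is 3.64-fold to 1.32-fold lower, with adjusted p from limma between 0.0123 and 0.0457. Of the 35 members, 26 had an unadjusted p under 0.05 from limma. The share of all genes under that limit was not counted, so this number has nothing to be set against. The median mean log2 ratio of the members was -0.44, against -0.03 over all genes, and 32 members had a mean ratio below 0, as did 53% of all genes. In 19 members every TAB value lay below every sham value, which held for 7.72% of all genes, and 13 of these 19 were called. In 25 members TAB was lower on all 5 days, which held for 17.5% of all genes. In bulk ventricle, fewer cells of a type and less RNA per cell cannot be told apart.

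**Figure D1:**
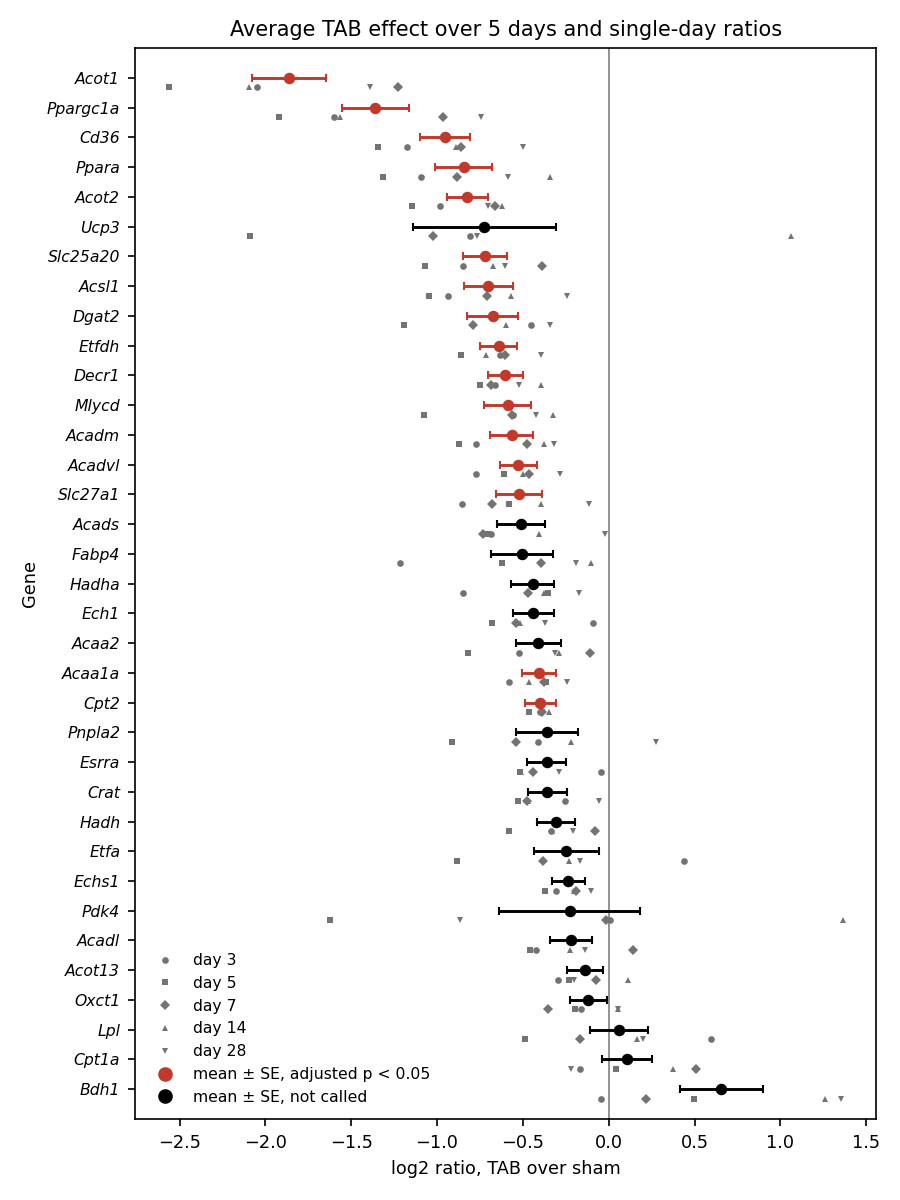
Mean log2 ratio of TAB over sham with its SE from limma (horizontal axis) for each of the 35 members (vertical axis), in red where the gene was called lower and in black where it was not, with the 5 single-day ratios in grey below each mean. The 16 called members lie between -1.87 and -0.40, and Bdh1, Cpt1a and Lpl are the 3 members with a mean above 0.

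The call counts depended on which days were included. Leaving out the pair of day 3 left 0 members called lower, leaving out day 5 left 1, day 7 left 0, day 14 left 6 and day 28 left 14, while the genes called in all numbered 2857 in the full fit and 34, 179, 37, 1158 and 2881 in these. The median ratio of the members lay between -0.53 and -0.42 in these fits. With median scaling alone 11 members were called lower, without Acaa1a, Cpt2, Dgat2, Mlycd and Slc27a1. With quantile normalization within each operation 15 were, without Acaa1a, Dgat2 and Slc27a1 and with Acaa2 and Ech1 added. With probes below 1 set to 1 rather than removed 7 were called, and with probes not found on an array left out 22.

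Of the 3 transcriptional regulators, Ppargc1a and Ppara were called lower and Esrra was not. Ppargc1a, a coactivator of genes for mitochondrial biogenesis and fatty acid oxidation, read 5.00, 5.33, 6.20, 5.83 and 6.84 in TAB, listed from day 3 to day 28, and 6.60, 7.25, 7.16, 7.39 and 7.59 in sham. TAB was below sham on each day, and only the highest TAB value, on day 28, exceeded the lowest sham value, on day 3. Its mean log2 ratio was -1.36 (SE 0.196, adjusted p = 0.0165 from limma, 5 pairs). The TAB value of day 3 was marked as not found, so it is near background and no fold is given, and with 50 added before log2 the mean ratio was -0.85. Ppara, the fatty acid-activated receptor that controls many of the enzymes below, read 7.79, 7.98, 8.37, 8.44 and 8.97 in TAB and 8.89, 9.29, 9.26, 8.78 and 9.55 in sham. Only the TAB value of day 28 exceeded any sham value. The mean log2 ratio of Ppara was -0.84 (SE 0.166, adjusted p = 0.0263 from limma), 1.80-fold lower. Its second probe was removed by the filter on low values and was found on 3 sham arrays and 0 TAB arrays. Esrra, an orphan receptor that acts with Ppargc1a, lay between 9.43 and 9.91 in TAB and between 9.95 and 10.23 in sham. Its groups did not overlap, but the mean ratio of -0.36 (SE 0.114) was not called, with an adjusted p of 0.0739 from limma.

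Of 24 other regulators tested, 3 were called lower and 1 higher, against 8.22% and 9.51% of all genes. These counts are near those shares, and the median mean log2 ratio of the list was -0.13. Rxrg, a partner receptor of Ppara, was lower by a mean log2 ratio of -0.78 and Thrb, a thyroid hormone receptor, by -0.63. Thra was also called lower but was not found on any TAB array, so it is given no fold, and Cebpa was called higher (0.86). Pparg and Prkaa2 were found on no array. With day 3 or day 7 left out this list gave 0 calls, and with day 5 or day 14 left out it gave 1 and 2, all lower.

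Ppara and the Esrra family bind DNA at copies of the half-site AGGTCA. On the other strand this site appears as TGACCT. It was searched on both strands in the 250 bases before transcript starts listed in RefSeq (GRCm38.p6). The windows at hand covered 32 of the 40 members. They lacked Acaa2, Acot13, Cpt1b, Crat, Decr1, Dgat2, Fabp4 and Lpl, although RefSeq places these genes. Of the 32 members, 6 held the half-site: Acadm, Acadvl, Cd36, Cpt1a, Echs1 and Ucp3. It was present in 14% of all 32851 windows. That share is per window, whereas the members were counted per gene, over 36 windows. Of the 14 members called lower that had a window, 3 held it. Their windows are printed because these genes were called lower and held the half-site. The windows are given in lower case and 5′ to 3′ on the strand of the gene, with the half-site in capitals. They lie on the minus strand at chr3:153944644-153944893 (Acadm), chr11:70015429-70015678 (Acadvl) and chr5:17835897-17836146 (Cd36).
Acadm: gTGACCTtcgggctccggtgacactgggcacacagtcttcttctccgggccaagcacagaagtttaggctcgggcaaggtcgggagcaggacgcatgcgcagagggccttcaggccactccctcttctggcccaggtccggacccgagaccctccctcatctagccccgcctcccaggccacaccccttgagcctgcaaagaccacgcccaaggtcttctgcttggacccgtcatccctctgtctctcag
Acadvl: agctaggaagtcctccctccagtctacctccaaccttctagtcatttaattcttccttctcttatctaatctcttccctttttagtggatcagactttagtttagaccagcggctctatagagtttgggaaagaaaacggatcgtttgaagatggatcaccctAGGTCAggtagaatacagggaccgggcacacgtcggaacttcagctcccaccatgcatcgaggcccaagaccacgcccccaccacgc
Cd36: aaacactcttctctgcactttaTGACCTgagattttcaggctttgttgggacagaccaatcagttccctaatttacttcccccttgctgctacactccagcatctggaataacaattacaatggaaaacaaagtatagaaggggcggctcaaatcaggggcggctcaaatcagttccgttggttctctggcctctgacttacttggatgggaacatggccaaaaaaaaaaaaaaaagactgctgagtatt
The half-site starts 249 bases before the listed start in Acadm, 87 bases in Acadvl and 228 bases in Cd36. The start of the Cd36 window lies inside the annotated gene (chr5:17781690-17888959), while the windows of Acadm and Acadvl end where the gene begins. The longer form TCAAGGTCA, which contains the half-site and is bound by Esrra, was in 0 member windows and in 0.387% of all windows. The direct repeat AGGTCANAGGTCA, which contains the half-site as well and is bound by Ppara with a partner receptor, was in 0 member windows and in 0.0335% of all. A match is a description of letters, and the absence of one says only that these letters are not in this window.

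In uptake and activation, 3 of the 5 measured members were called lower. Cd36, the main fatty acid carrier of the cardiomyocyte membrane, read 9.56, 9.29, 9.99, 9.94 and 10.30 in TAB and 10.73, 10.64, 10.85, 10.83 and 10.80 in sham. All TAB values were below all sham values, and the sham values spanned little. The mean log2 ratio was -0.95 (SE 0.146, adjusted p = 0.0181 from limma), 1.94-fold lower. The second Cd36 probe gave -0.28 (SE 0.106) and was lower on all 5 days, but was not called when every probe was tested (adjusted p = 0.113), so the size of the Cd36 difference depends on the probe. With the mean of both probes it was -0.62. Acsl1, which joins fatty acids to coenzyme A, read 12.02, 11.91, 12.22, 12.29 and 12.71 in TAB and 12.95, 12.96, 12.93, 12.86 and 12.95 in sham. Its groups did not overlap either, with a mean ratio of -0.70 (SE 0.144, adjusted p = 0.0286 from limma). Slc27a1, a fatty acid transport protein, had a mean ratio of -0.52 (SE 0.134, adjusted p = 0.0457 from limma), which narrowed from -0.85 on day 3 to -0.11 on day 28.

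Fabp4 and Lpl were not called. Fabp4, a fatty acid binding protein of capillary endothelium and adipocytes, had ratios of -1.22, -0.62, -0.40, -0.10 and -0.19 over the days, with a mean of -0.51 (SE 0.182, adjusted p = 0.102 from limma) that was -0.33 without day 3. Lpl, the lipase that frees fatty acids from circulating triglyceride, had a mean ratio of 0.06 (SE 0.171). Its sham value of day 3 was 14.73 and those of the other days lay between 15.28 and 15.70, and without day 3 the mean ratio was -0.07. The 11 endothelial markers gave 0 calls in either direction, with a median mean ratio of 0.10 and a summed normalized intensity of 15300 to 20000 in TAB and 14000 to 17100 in sham. Of the 7 adipocyte markers tested, Cfd was called higher and Adig lower, though Adig was found on only 1 of 5 TAB arrays. Adipoq and Plin1 were not called, with mean ratios of -0.10 and -0.09. Without day 3, 5, 7 or 14 no adipocyte marker was called. The summed intensity of the 7 was 584 to 1070 in TAB and 832 to 1210 in sham, and Lep and Ucp1 were found on no array. The part of these cell types in the result was not tested.

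The carnitine shuttle had 3 of 5 measured members called lower. Slc25a20, the carrier that exchanges acylcarnitine for carnitine across the inner mitochondrial membrane, read 11.61, 11.33, 12.02, 11.67 and 12.03 in TAB and 12.46, 12.41, 12.41, 12.35 and 12.63 in sham. The groups did not overlap, and the mean log2 ratio was -0.72 (SE 0.128, adjusted p = 0.0228 from limma). Its second probe was called as well (-0.54, adjusted p = 0.0483 with every probe tested). Cpt2, which returns the acyl group to coenzyme A inside the mitochondrion, had nearly the same ratio on every day, between -0.46 and -0.35, with a mean of -0.40 (SE 0.0893, adjusted p = 0.0341 from limma). Mlycd, which breaks down malonyl-CoA, the inhibitor of carnitine palmitoyltransferase 1, had its lowest ratio on day 5 (-1.08) and averaged -0.59 (SE 0.136, adjusted p = 0.0362 from limma). Crat, which converts acetyl-CoA to acetylcarnitine, had non-overlapping groups and a mean ratio of -0.36 (SE 0.113) that was not called (adjusted p = 0.0752 from limma). Its raw intensity was low, from 37 to 67, and its mean ratio lay between -0.43 and -0.18 over the alternatives.

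Cpt1a, the liver form of carnitine palmitoyltransferase 1, had no settled direction. The brighter probe gave ratios of -0.17, 0.05, 0.51, 0.38 and -0.22 and a mean of 0.11 (SE 0.146), whereas the second probe gave -0.95, -0.44, -0.36, -0.40 and 1.29 and a mean of -0.17 (SE 0.318). Neither was called. The muscle form, Cpt1b, was not analysed here.

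Among the enzymes of beta-oxidation, 4 of 11 were called lower, 8 had TAB values all below sham, and the mean ratio of all 11 was below 0. Acadm, the medium-chain acyl-CoA dehydrogenase, read 14.03, 13.82, 14.25, 14.31 and 14.39 in TAB and 14.81, 14.69, 14.73, 14.69 and 14.71 in sham. TAB lay below sham throughout and was nearest to it on day 28, and the mean log2 ratio was -0.57 (SE 0.125, adjusted p = 0.0329 from limma), 1.48-fold lower. Acadvl, the very-long-chain dehydrogenase that opens the pathway, read 13.42, 13.59, 13.57, 13.59 and 13.75 in TAB and 14.20, 14.20, 14.04, 14.10 and 14.04 in sham. The groups did not overlap, and its mean ratio was -0.53 (SE 0.110, adjusted p = 0.0298 from limma). Decr1, the dienoyl-CoA reductase for unsaturated fatty acids, had a mean ratio of -0.60 (SE 0.102, adjusted p = 0.0210 from limma), between -0.75 and -0.39 over the days. Acaa1a, a thiolase of the peroxisome, had a mean ratio of -0.41 (SE 0.0989, adjusted p = 0.0406 from limma), which was -0.26 with median scaling alone and -0.27 with quantile normalization within each operation, and not called with either. It has a near-identical copy, Acaa1b, whose RNA its probe could share, though the array's own probe for Acaa1b was found on none of the 10 arrays.

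The other 7 enzymes were not called. Acads, the short-chain dehydrogenase, had ratios of -0.69, -0.70, -0.73, -0.41 and -0.02 and lay just outside the threshold (mean -0.51, SE 0.140, adjusted p = 0.0533 from limma). Ech1, an isomerase for unsaturated chains, did so as well (mean -0.44, SE 0.119, adjusted p = 0.0512 from limma). Both were called in the fit without a replicate block. Acaa2, the thiolase of the last step, and Echs1, the short-chain hydratase, had groups that did not overlap and mean ratios of -0.41 (SE 0.132) and -0.24 (SE 0.0958). Hadha, the alpha subunit of the trifunctional protein, Hadh, the short-chain hydroxyacyl-CoA dehydrogenase, and Acadl, the long-chain dehydrogenase, had mean ratios of -0.44, -0.31 and -0.22 and groups that overlapped.

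Of the pathway that passes electrons from these dehydrogenases to the respiratory chain, Etfdh was called lower and Etfa was not. Etfdh, the ubiquinone oxidoreductase, read 12.58, 12.29, 12.81, 12.51 and 12.80 in TAB and 13.21, 13.15, 13.42, 13.22 and 13.19 in sham. These groups did not overlap, and the mean log2 ratio was -0.64 (SE 0.107, adjusted p = 0.0209 from limma). Etfa, a subunit of the flavoprotein itself, had a mean ratio of -0.25 (SE 0.191), with a single ratio above 0, of 0.44 on day 3, when its sham value was 13.38 against 14.39 to 14.66 on the other days. Its second probe had a ratio of 0.02 on that day and a mean of -0.36 (SE 0.127), which was not called either. The mean of the brighter probe was -0.42 without day 3 and -0.09 without day 5.

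The thioesterases Acot1 and Acot2, which split acyl-CoA in the cytosol and the mitochondrion and are textbook targets of Ppara, were both called lower. Acot1 had the lowest mean ratio of all members and read 7.39, 6.43, 7.54, 6.75 and 7.15 in TAB and 9.43, 8.995, 8.77, 8.85 and 8.54 in sham. The highest TAB value, 7.54, lay below the lowest sham value, 8.54, and the mean ratio was -1.87 (SE 0.215, adjusted p = 0.0123 from limma), 3.64-fold lower. Acot2 read 9.28, 8.83, 9.30, 9.17 and 9.42 in TAB and 10.26, 9.98, 9.96, 9.80 and 10.12 in sham, again without overlap, with a mean ratio of -0.82 (SE 0.121, adjusted p = 0.0166 from limma). Acot1 lies at chr12:84009502-84017670 and Acot2 at chr12:83987861-83993877 in GRCm38.p6, and these genes are near-identical neighbours, so how much of each reading belongs to which gene is uncertain. Acot13, a thioesterase of another family, had a mean ratio of -0.14 (SE 0.105).

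Pdk4 and Ucp3 were not called, and their groups overlapped. Pdk4, the kinase that shuts off pyruvate dehydrogenase and so spares glucose, read 11.96, 10.90, 11.70, 11.69 and 11.40 in TAB and 11.95, 12.53, 11.71, 10.33 and 12.27 in sham. The lowest sham value was that of day 14, and the mean ratio was -0.23 (SE 0.410, adjusted p = 0.729 from limma). Ucp3, a mitochondrial carrier known to follow fatty acid supply, read 7.10, 6.07, 6.84, 6.99 and 6.64 in TAB and 7.90, 8.16, 7.87, 5.93 and 7.41 in sham, and its mean ratio was -0.73 (SE 0.416, adjusted p = 0.261 from limma). On day 14 alone TAB was above sham in both genes, by 1.36 and 1.06 on the log2 scale, and on the other 4 days the ratio of Ucp3 was between -2.09 and -0.77. The clock gene Dbp, chosen after its values were seen, read 8.08, 11.49, 11.53, 11.33 and 12.17 in TAB and 8.01, 11.49, 12.52, 8.59 and 12.36 in sham. Its TAB over sham ratio was 2.74 on day 14, -0.98 on day 7 and between -0.19 and 0.07 on the other days. Time of day at sampling is not given, and its part in the readings of Pdk4 and Ucp3 was not tested. Without day 14 the mean ratios were -0.63 for Pdk4 and -1.17 for Ucp3, without day 5 they were 0.12 and -0.39, and neither gene was called in these fits.

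**Figure D2:**
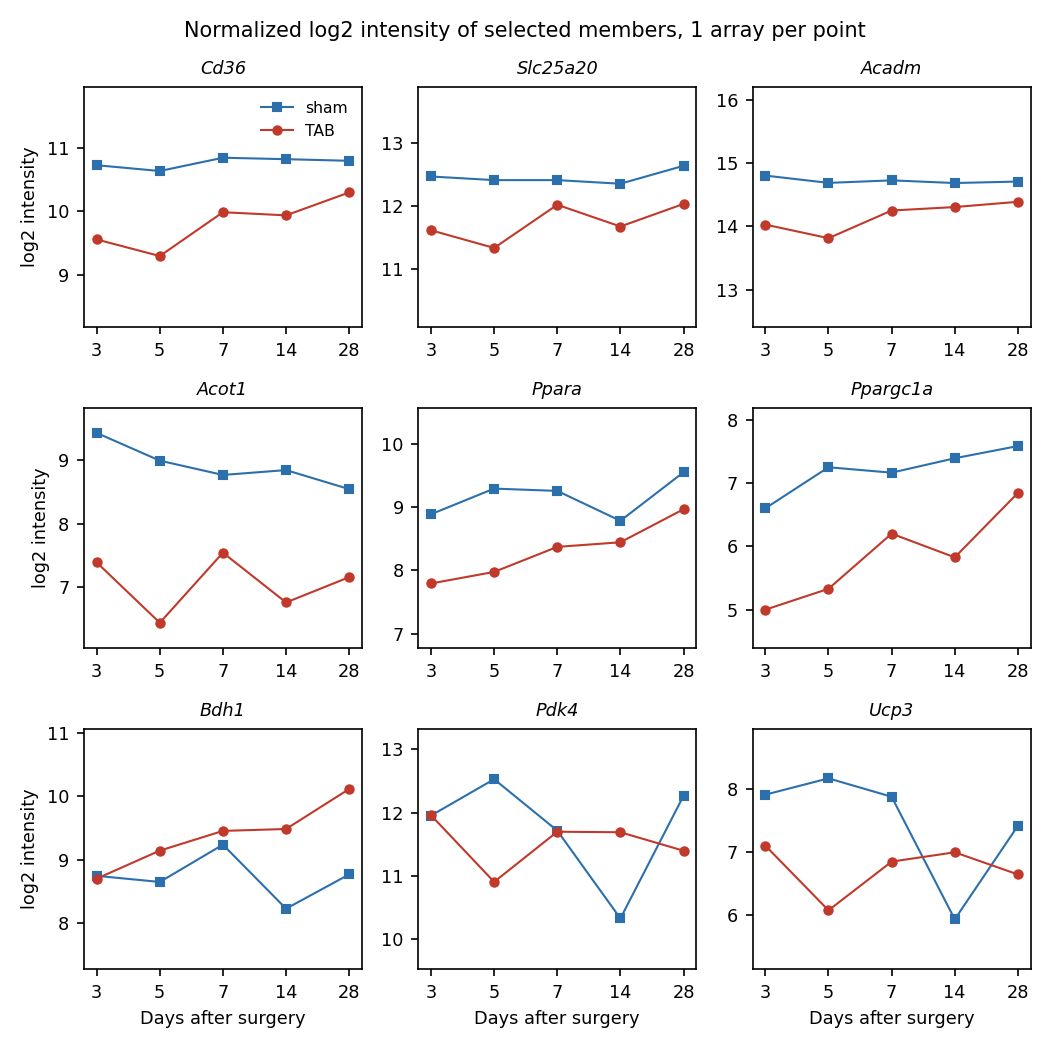
Log2 normalized intensity (vertical axis, with the same span in every panel) of selected members by days after surgery (horizontal axis, not to scale), with sham as blue squares and TAB as red circles, 1 array per point. Cd36, Slc25a20, Acadm and Acot1 stay below sham on all 5 days, Bdh1 lies above it from day 5 on, and Pdk4 and Ucp3 cross on day 14.

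In ketone body use neither member was called. Bdh1, the dehydrogenase that starts the use of beta-hydroxybutyrate, read 8.70, 9.14, 9.46, 9.49 and 10.12 in TAB and 8.74, 8.65, 9.24, 8.23 and 8.77 in sham, and it had the highest mean ratio of the 35 members, 0.66 (SE 0.240, adjusted p = 0.106 from limma). Its ratios were -0.04, 0.50, 0.22, 1.26 and 1.35 over the days, and 2 of the alternative filters called it higher. Oxct1, which transfers coenzyme A to acetoacetate, lay between 14.10 and 14.46 in TAB and between 14.31 and 14.45 in sham, with a mean ratio of -0.12 (SE 0.108).

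In triglyceride turnover, Dgat2, the last enzyme of triglyceride synthesis, was called lower, with ratios of -0.45, -1.20, -0.79, -0.60 and -0.34 and a mean of -0.68 (SE 0.149, adjusted p = 0.0330 from limma). Pnpla2, the lipase that starts triglyceride breakdown, had ratios of -0.41, -0.91, -0.54, -0.22 and 0.28 and a mean of -0.36 (SE 0.180, adjusted p = 0.203 from limma). Its second probe was found on only 3 arrays of each operation, too near background to give a direction.

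The median difference was widest on day 5. The median ratio of the members was -0.56, -0.70, -0.47, -0.38 and -0.28 on days 3, 5, 7, 14 and 28, while that of all genes lay between -0.06 and -0.01. Set against each other in 10 pairs, the sham arrays gave a median ratio of the members between -0.11 and 0.07. The lowest ratio fell on day 5 in 25 members, on day 3 in 7, on day 7 in Acads and Oxct1, and on day 28 in Cpt1a. On day 5 the ratio was under -1 in 11 members, and on day 28 in 1, Acot1. TAB was below sham in 32, 33, 32, 28 and 31 of the 35 members on the 5 days, and the ratio of day 5 was more negative than that of day 28 in 34. These counts were not made over all genes. The ratios of all genes also spread most on day 5 (SD 0.93) and least on day 28 (SD 0.66), so a fixed limit is passed more easily on day 5.

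**Figure D3:**
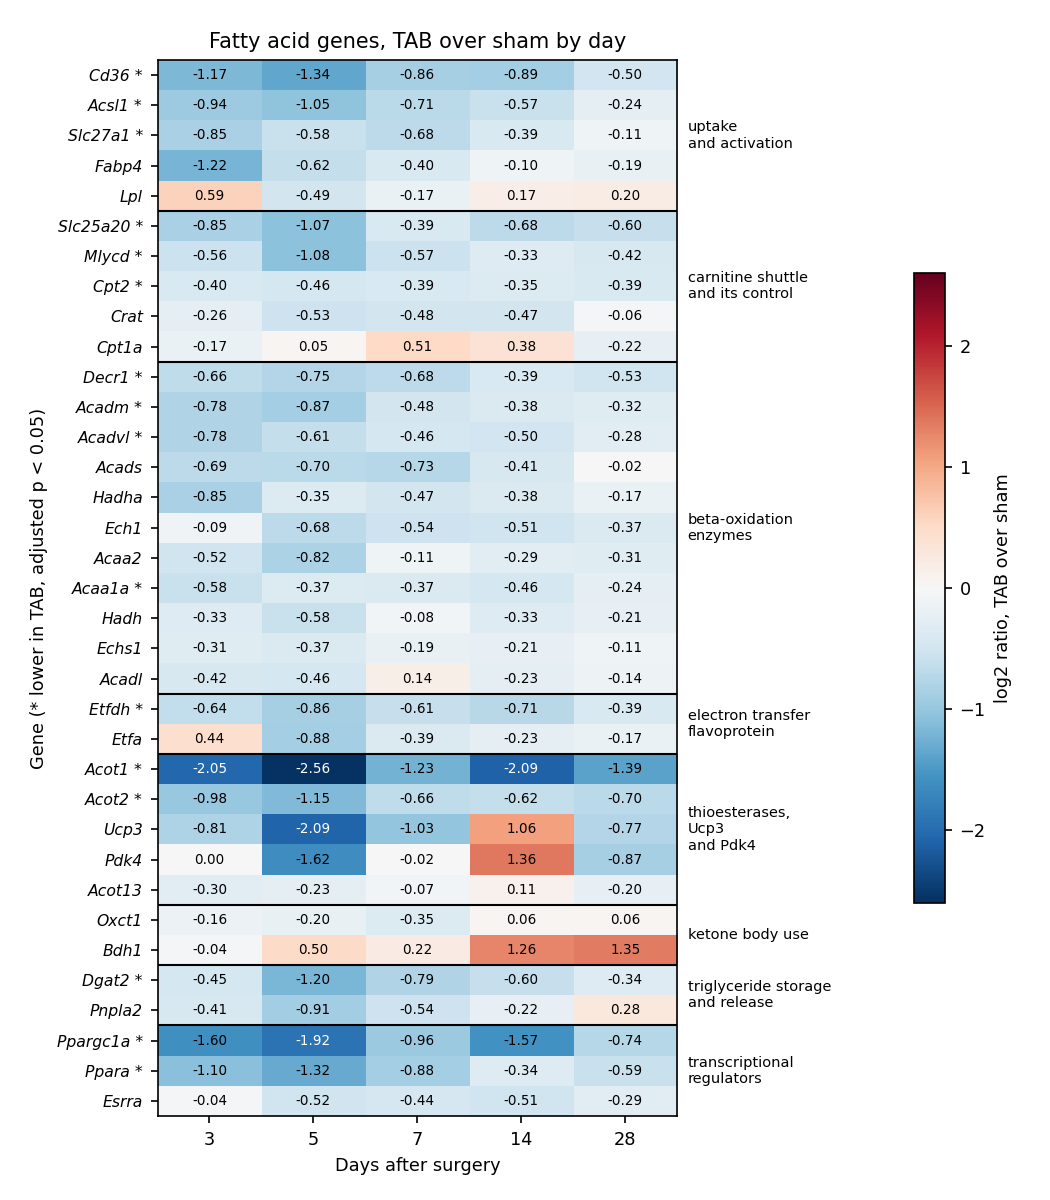
Log2 ratio of TAB over sham (colour, blue for lower in TAB, with the value printed in each cell) for the 35 members (vertical axis, grouped by role, an asterisk marking members called lower) on 5 days after surgery (horizontal axis). Most cells are blue on every day and palest on day 28, while Pdk4 and Ucp3 on day 14 and Bdh1 on days 14 and 28 are the deepest red. Paler red cells include Lpl on day 3 and Cpt1a on day 7.

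**Figure D4:**
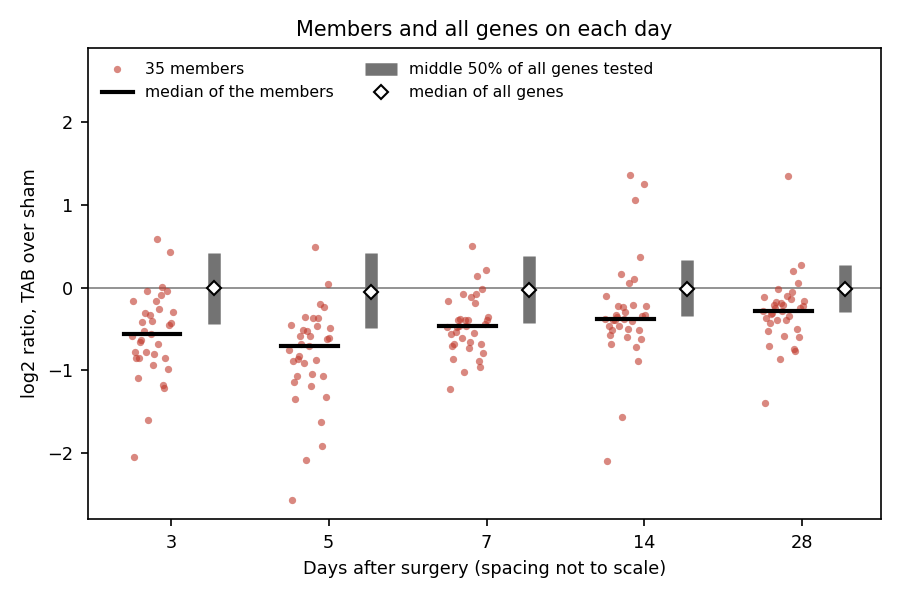
Log2 ratio of TAB over sham (vertical axis) by days after surgery (horizontal axis, not to scale) for the 35 members as points with their median as a black line, beside the middle 50% of all 16113 genes as a grey bar with its median as a diamond. The median of the members is below that of all genes on each day, from -0.70 on day 5 to -0.28 on day 28.

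Days 3 to 7 were compared with days 14 and 28 by a contrast in limma. The ratio was more negative early in 32 of the 35 members and in 50.9% of all genes, and the median of early minus late was -0.24 over the members and -0.01 over all genes. At an adjusted p under 0.05 limma called 0 members and 0 genes, and the lowest adjusted p was 0.365 among the members and 0.167 among all genes. At an unadjusted p under 0.05 there were 1822 genes and 2 members, Bdh1 (early minus late -1.08, SE 0.233) and Ppara (-0.64, SE 0.223). The smaller medians of the later days are thus a description, and no single member was called.

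On single days a gene was called when its ratio lay more than 2 SDs of that day's ratios from 0, with limits of 1.71, 1.86, 1.69, 1.43 and 1.33 on the 5 days. Acot1 was called lower on day 3, Acot1, Ppargc1a and Ucp3 on day 5, none on day 7, Acot1 and Ppargc1a on day 14, and Acot1 on day 28, against 1.99%, 1.44%, 1.46%, 2.15% and 2.29% of all genes. Bdh1 on day 28 was the single call higher, against 3.64% over all genes and days.

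Among other genes of fatty acid and ketone metabolism, 18 of 71 tested from a list of 78 were called lower and 7 higher, against 8.22% and 9.51% of all genes, so that the share called higher was near that of all genes. Their median mean ratio was -0.29. Acsl6, an acyl-CoA synthetase, was called lower but was found on 3 of 5 TAB arrays and is given no size. Vldlr, the receptor for triglyceride-rich lipoprotein, had a mean ratio of -1.06 (SE 0.199). Plin5, which coats lipid droplets at mitochondria, had -0.91 (SE 0.184), Mut, the methylmalonyl-CoA mutase for odd-chain products, had -0.88 (SE 0.158), and Phyh, a peroxisomal hydroxylase, had -0.86 (SE 0.167), all 3 of which were named after their values were seen. Higher in TAB were Bdh2 (1.19, SE 0.155) and Pdk3, a kinase of pyruvate dehydrogenase (1.12, SE 0.185). Fabp5 (0.78, SE 0.176), Scd1 (0.71, SE 0.137) and Acsl5 (0.65, SE 0.173) were called higher too, and were also named after their values were seen. Lipe, the hormone-sensitive lipase, and Slc27a6 were called higher but were found on 4 and 0 of the 5 sham arrays and are given no fold. With median scaling alone 10 of the list were called lower and 8 higher, and with quantile normalization within each operation 10 lower and 9 higher. Without day 3, 5 or 7 the list gave 0 calls in either direction, without day 14 it gave 2 lower and 3 higher, and without day 28 it gave 16 lower and 7 higher.

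Neighbouring routes were read for comparison. Of 34 subunits of the respiratory chain 10 were called lower and 0 higher, with a median mean ratio of -0.34. Of 20 genes of glucose use 5 were called lower and 2 higher, with a median of -0.12. Over all genes 8.22% were called lower and 9.51% higher, so the 2 glucose genes called higher were near the share of all genes. Without day 3, 5 or 7 both lists gave 0 calls, and without day 14 they gave 2 and 1, all lower. Whether these lists differed from the fatty acid genes was not tested.

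Markers of some other cell types were called in TAB. Of 8 fibroblast markers tested 5 were called higher (Col3a1, Col1a2, Postn, Fn1 and Lum), against 9.51% of all genes. Dcn, Tcf21 and Dpt were not called. The summed intensity of the 8 was 41800 to 58600 in TAB and 32000 to 34300 in sham. Col1a1 was found on no array. Of 9 leukocyte markers 7 were called higher and 1 lower, with sums of 2920 to 6350 in TAB and 2080 to 2580 in sham. Of the 12 cardiomyocyte markers Atp2a2 was called lower, the median mean ratio was -0.14, and the sums were 331000 to 351000 in TAB and 354000 to 392000 in sham. The Myl2 probe was saturated on 9 of the 10 arrays, and without it the sums were 265000 to 286000 and 288000 to 326000. Without day 3, 5, 7 or 14 the fibroblast calls numbered 1, 3, 1 and 4 and the leukocyte calls 0, 1, 0 and 5, and without day 3, 5, 7 or 28 no cardiomyocyte marker was called. The part of cell composition in the lower readings of the fatty acid genes was not tested.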

How the data were processed

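Left-ventricular RNA of 10 mouse samples, 5 TAB and 5 sham, was hybridized to a 1-colour OneArray, scanned with an Agilent scanner and quantified in GenePix. The authors deposited raw intensity per probe and array, from which a background seems already subtracted since values go below 0, unscaled between arrays. A flag per spot, of another kind of unit and with no stated meaning, was deposited too. Its negative value was read as not found. The deposited detection p-value was not used. The number of arrays limits the precision. The columns are named by operation and day, and groups came from the sample titles.

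Each array was brought to one median and the 6447 of 26423 probes below 1 on any array were removed, as in the study's methods. Quantile normalization over all 10 arrays gave the rest the median at each rank. The study's methods can also be read as normalization within each operation, which was an alternative. Values were put on the log2 scale. Each of 16113 genes was represented by its brightest probe, because the study's choice, the probe with the largest change, uses the readout. The TAB effect and its difference between early and late days were fitted with limma 3.58.1 (lmFit and eBayes) in R 4.3.3, with day as a block. The fit was tested on simulated data. The block follows from the shared day after surgery, as in the study's ratios. Over genes, same-day samples deviated from the means of their operations with a correlation r of 0.135, -0.0044, 0.039, 0.0161 and 0.0247 on days 3, 5, 7, 14 and 28. No pair of arrays held identical values. Other tools were Python 3.11.15, numpy 2.4.6, pandas 2.3.3 and matplotlib 3.10.9.

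The members and gene lists were chosen with earlier results of these data known. All members are accounted for, and those called, without overlap, at the extremes of a role, with disagreeing probes or not found are named with values. In other lists called genes could be named, up to 6 a list by size of ratio. Of the fatty acid list, 3 more called lower and 3 more called higher were named after their values were seen. Some fibroblast and adipocyte markers that were not called were named likewise. Gene positions and promoter windows are from RefSeq, GRCm38.p6. Probe sequences were not used here, so where a probe lies in its gene is not given. Alternatives were other normalizations, filters, offsets, probe choices, limma options and thresholds, a fit without the replicate block, and leaving out each day. Leaving out days for the comparison and marker lists, and a saturated probe from the cardiomyocyte sums, was added after seeing the data.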

Additional observations from a re-analysis of the deposited data

Results flagged for a closer look

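In 5 of 70 sets of 5 arrays (35 members, 2 operations), 1 array stood apart from the other 4 by Dixon's test, which chance does in about 1 set in 20. Etfa read 13.38 in sham on day 3 and 14.39 to 14.66 on the other sham arrays. Hadh read 14.69 in sham on day 7, against 15.01 to 15.13, and Etfdh read 13.42 on the same array, against 13.15 to 13.22. Acsl1 read 12.86 in sham on day 14, against 12.93 to 12.96. Decr1 read 11.08 in TAB on day 5, against 11.41 to 11.50.

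The ratio of Oxct1 was below 0 on days 3, 5 and 7 (-0.16, -0.20 and -0.35) and above 0 on days 14 and 28 (0.06 on both), a difference between early and late days of -0.29. It was not called (adjusted p = 0.553 from limma).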

How the results depend on the processing

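The members called lower numbered 16 in the reported fit, 7 with probes below 1 set to 1, 22 with probes not found or the lowest tertile left out, 23 with 50 added before log2, 24 with limma's trend and robust options, and 0 to 14 when a day was left out. The 14, without day 28, held 13 of the 16 and Acads. Their median ratio was negative in every alternative. 1 member, Bdh1, was called higher with probes not found on an array left out or with the lowest tertile left out. Single-day calls lower numbered 7, and 2 with probes below 1 set to 1, 16 with 50 added before log2 and 21 at a log2 ratio of at least 1. Leaving out a day only takes away the calls of that day, which left 4 to 7. Single-day calls higher numbered 1, and 2 with median scaling alone or quantile normalization within each operation. They numbered 0 with probes below 1 set to 1 or the probe with the largest change, and 3 with 50 added. There were 4 with probes not found or the lowest tertile left out or at a log2 ratio of at least 1, and 0 to 1 when the calls of 1 day were taken away. Of the other fatty acid and ketone genes, 18 were lower and 7 higher. These became 10 lower and 8 higher with median scaling alone, 10 lower and 9 higher with within-operation quantiles, and 5 lower and 2 higher with probes below 1 set to 1. They became 24 to 27 lower and 8 to 9 higher with the lowest tertile or probes not found left out, 50 added, or trend and robust options. When a day was left out they became 0 to 16 lower and 0 to 7 higher. The cause was not tested. Cpt1a, Lpl, Pdk4 and Pnpla2 changed sign without being called: Cpt1a to -0.17 with the probe of largest change and -0.0313 with the mean of all probes, Lpl to -0.0333 with median scaling alone, -0.0253 with within-operation quantiles and between -0.0723 and 0.198 when a day was left out, Pdk4 to between -0.626 and 0.121 when a day was left out, and Pnpla2 to 0.22 with the probe of largest change.

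Without the replicate block 20 members were called lower, the 16 and Acaa2, Acads, Crat and Ech1, and 24 other fatty acid and ketone genes were lower and 9 higher. Over all genes 1324 were lower and 1533 higher, against 880 and 1843 with median scaling alone and 978 and 1939 with quantiles within each operation. Over all genes 2857 were called, 1134 with probes below 1 set to 1 and 4328 with 50 added. Raw intensity of members reached 59252, below saturation, and 1 sample per operation and day limits every value.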
